A study of Arabidopsis thaliana with 9 samples.

Results

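The metallothionein genes described here are MT1A (AT1G07600), MT1C (AT1G07610), MT2A (AT3G09390), MT2B (AT5G02380) and MT3 (AT3G15353), 5 of the 33602 genes in the files, taken by gene identifier. Their transcripts were measured by RNA sequencing in Arabidopsis thaliana seedlings, 9 days old, on 1/2 MS medium with 2% sucrose. The groups were OE2 and OE1, labelled as overexpressing CsGSTF1, and tt19-8, labelled as a knock-out of tt19, with 3 libraries each. CsGSTF1 is a tea glutathione S-transferase, and the series title speaks of its rescue of anthocyanin in tt19-8. The labels give neither the promoter of the transgene, nor the background genotype of the OE lines, nor whether the libraries of a group came from separate cultures. P-values therefore measure only the spread between these samples, which may be technical. The family was selected on its FPKM values in OE2, where MT1C and MT2A were already known to be high, so all OE2 values below are a description and carry no test.

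Metallothioneins are small cytosolic proteins rich in cysteine, whose thiol groups bind copper and zinc ions, and in plants they buffer these metals and are known from senescing leaves, roots and phloem. In Arabidopsis, type 1 genes (MT1A, MT1C) are known for expression in roots and vascular tissue, type 2 genes (MT2A, MT2B) and MT3 are expressed widely and strongly in leaves, and type 4 genes (MT4A, MT4B) are seed genes. MT2A and MT1C were far higher in OE2 than in OE1 or tt19-8, while MT2B and MT3 had overlapping values in all 3 groups. MT1A was listed at 0 in every library. In OE1 against tt19-8, the comparison that can be tested, none of the 4 members with values passed.

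The coding sequences are shown because the cysteine codons define the family and because MT1A and MT1C are near copies, which bears on how their reads can be told apart. They were read from the TAIR10.1 reference with the RefSeq gene models, run 5′ to 3′ from start to stop codon, and have the cysteine codons TGT and TGC in capitals.
MT1A: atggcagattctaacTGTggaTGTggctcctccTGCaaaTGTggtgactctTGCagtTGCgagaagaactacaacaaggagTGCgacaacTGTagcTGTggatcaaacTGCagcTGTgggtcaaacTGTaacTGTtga
MT1C: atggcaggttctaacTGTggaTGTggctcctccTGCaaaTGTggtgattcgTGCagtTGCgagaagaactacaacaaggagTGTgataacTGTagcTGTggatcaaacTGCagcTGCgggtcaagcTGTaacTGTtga
MT2A: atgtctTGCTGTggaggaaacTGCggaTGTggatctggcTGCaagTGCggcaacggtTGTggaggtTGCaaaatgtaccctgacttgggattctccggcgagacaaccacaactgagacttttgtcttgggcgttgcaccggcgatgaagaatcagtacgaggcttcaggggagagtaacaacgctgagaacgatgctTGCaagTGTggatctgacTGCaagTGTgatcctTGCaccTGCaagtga
MT2B: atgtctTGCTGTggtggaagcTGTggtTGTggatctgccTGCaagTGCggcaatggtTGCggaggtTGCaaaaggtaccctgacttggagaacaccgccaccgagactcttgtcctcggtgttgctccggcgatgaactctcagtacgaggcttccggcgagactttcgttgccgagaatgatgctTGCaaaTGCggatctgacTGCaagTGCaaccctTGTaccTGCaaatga
MT3: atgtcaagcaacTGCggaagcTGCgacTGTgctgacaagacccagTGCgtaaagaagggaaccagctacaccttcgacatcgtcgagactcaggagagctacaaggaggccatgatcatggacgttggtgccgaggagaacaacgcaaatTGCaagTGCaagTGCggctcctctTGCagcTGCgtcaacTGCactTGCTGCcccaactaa

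Of the codons before the stop, 13 of 45 coded for cysteine in MT1A and in MT1C, 14 of 81 in MT2A, 14 of 77 in MT2B and 12 of 69 in MT3. A cysteine codon, 1 other codon and a second cysteine codon followed each other 6 times in each type 1 gene and 5 times in MT2A, MT2B and MT3. The MT1A and MT1C coding sequences differed at 7 of 138 bases (94.9% identity), and MT2A and MT2B shared 79.7% of aligned bases. MT3 shared 42.8% to 52.2% with the others. Despite this likeness, no window of 50 bases from any member's longest annotated transcript had an exact match anywhere else in the genome. Windows across an exon junction could not match there, since genomic sequence is not spliced. Matches with differing bases were not searched. Read length and the treatment of reads that map to several places are not given in the sources used here.

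The members lie on 3 chromosomes. MT1C is at chromosome 1, 2341447 to 2342148, forward strand, with an annotated transcript of 577 bases, and MT1A lies beside it at 2338904 to 2339321 on the reverse strand. MT2A is at chromosome 3, 2889406 to 2890574, with a longest transcript of 963 bases, and MT3 at chromosome 3, 5180642 to 5181586, with 648 bases. MT2B is at chromosome 5, 506498 to 507244, with 571 bases. All 3 are on the reverse strand, and the coordinates are those of TAIR10.1. These are short transcripts, and the lengths that the authors used for FPKM (fragments per kilobase and library size) are not stated.

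Before the members' values, several facts on the libraries touch every OE2 result. The OE2 values were linked to OE1 values of the same replicate number. In pairs 1, 2 and 3 no gene above 0 in OE1 was at 0 in OE2, and the lowest OE2 to OE1 ratio was 0.6002, 0.6005 and 0.6007 over 21905, 22005 and 22196 genes. OE2 is therefore not independent of OE1, and the cause of the link was not tested. The low values of single-exon genes lay on steps of whole fragments in OE1 and tt19-8, from which about 48100000 to 57300000 fragments stood behind each library. OE2 values showed no such steps, and the depth of these libraries is unknown. FPKM totals were 867529 to 912535 in OE2, 1032370 to 1079857 in OE1 and 1056688 to 1096075 in tt19-8.

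MT1C, a type 1 gene, had 30.0, 35.3 and 46.4 FPKM in OE2 replicates 1, 2 and 3. It had 2.66, 1.45 and 2.85 FPKM in OE1, against 1.42, 1.93 and 2.71 FPKM in tt19-8. The lowest OE2 library lay far above the highest of the other groups, whose ranges overlapped almost fully. The means were 37.3 ± 8.37 FPKM in OE2, 2.32 ± 0.759 FPKM in OE1, and 2.02 ± 0.651 in tt19-8 (SD, n = 3 each). The OE2 mean was 16.1 times that of OE1 and 18.5 times that of tt19-8. Within the same-numbered pairs, OE2 was 11.3, 24.4 and 16.3 times as high as OE1. At the annotated transcript length, the values correspond to about 42 to 89 fragments in OE1 libraries and 42 to 90 in tt19-8 libraries, well above 3 counts. On the scale of log2(FPKM + 1), used for all log2 values here, the difference was 3.53 for OE2 minus OE1, the largest of the 18232 genes tested (those at 1 FPKM or more in 3 or more libraries). OE2 minus tt19-8 gave 3.66, the second largest. These ranks are part of what drew attention to the gene and are given as a description.

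**Figure D1:**
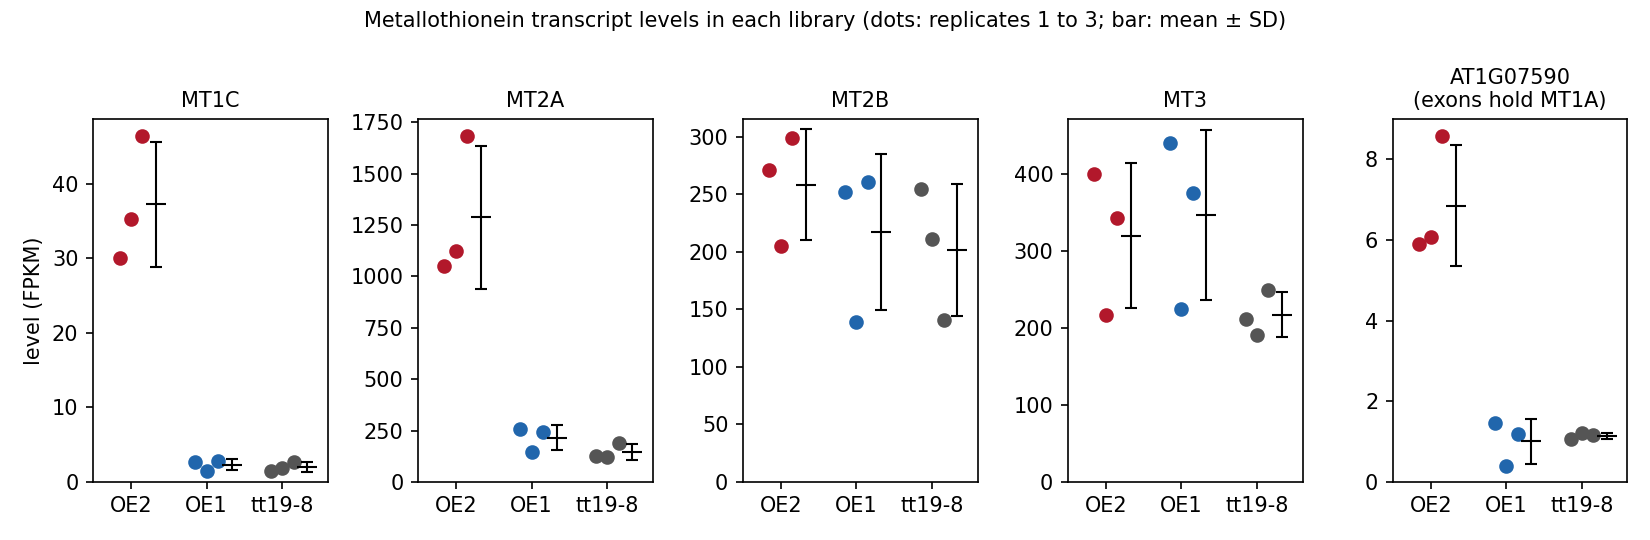
Levels in FPKM (linear axes from 0, a scale for each panel) of MT1C, MT2A, MT2B, MT3 and AT1G07590, a gene whose exons hold MT1A. Dots are the libraries of OE2, OE1 and tt19-8, replicates 1 to 3 from left to right, and bars are mean ± SD (n = 3). MT1C, MT2A and AT1G07590 have all OE2 libraries above all others, while MT2B and MT3 overlap between groups.

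MT1A, the other type 1 gene, was listed at 0 FPKM in all 9 libraries, so it has no fold change and no test. In OE1 and tt19-8, 3 counts over its annotated 138 bases would read 0.379 to 0.452 FPKM, a limit that covers counting error only. All 138 exonic bases of the MT1A model lie within exons of AT1G07590, a gene annotated for a tetratricopeptide repeat-like protein on the same strand at 2336477 to 2339391. By position alone, fragments from these exons belong to both genes, so a 0 from the counting and a 0 from absence of the transcript cannot be told apart. Of 15 protein-coding genes that lie in this way inside exons of another gene, MT1A among them, 8 (53.3%) were at 0 in all libraries. Of 26697 other protein-coding genes 12.1% were at 0, and of the 2974 with transcripts under 700 bases 51.3%. The 15 genes were taken at any length, so these shares do not show whether the overlap matters. The overlap is that of the TAIR10.1 annotation, and the gene models the authors used may differ.

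AT1G07590 itself had the pattern of MT1C. It had 5.90, 6.08 and 8.59 FPKM in OE2, 1.47, 0.387 and 1.18 FPKM in OE1, against 1.06, 1.20 and 1.16 FPKM in tt19-8. All OE2 libraries lay above all others, with a mean 6.78 times that of OE1 and 5.996 times that of tt19-8. AT1G07615, the gene on the far side of MT1C, had another pattern, with 7.75, 6.55 and 5.97 FPKM in OE2, 7.90, 6.84 and 5.97 FPKM in OE1, against 5.07, 4.40 and 5.76 FPKM in tt19-8. Its OE2 and OE1 ranges overlapped, and both lay just above tt19-8. Of the genes beside the other members, PLL3, a pectate lyase-like gene beside MT2A, averaged 0.802 ± 1.22 FPKM in OE2, 0.959 ± 1.53 FPKM in OE1 and 3.37 ± 0.755 FPKM in tt19-8. AT5G02370, beside MT2B, averaged 15.1 ± 3.99, 17.0 ± 4.58 and 18.4 ± 4.06 FPKM in OE2, OE1 and tt19-8, so neither was high in OE2. Whether the AT1G07590 values hold MT1A fragments was not tested.

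**Figure D2:**
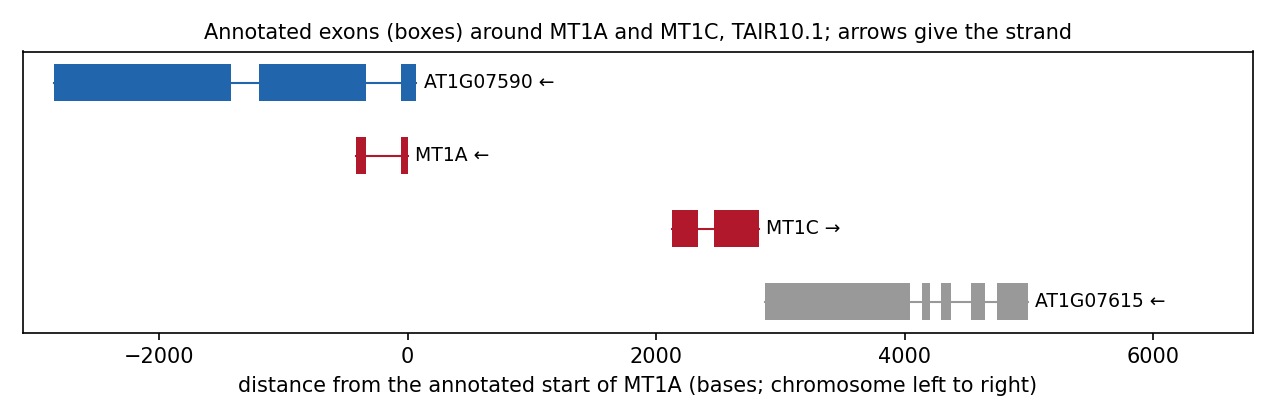
Annotated exons (boxes) of AT1G07590, MT1A, MT1C and AT1G07615 in TAIR10.1, by distance in bases from the annotated start of MT1A, with arrows for the strand. Both MT1A exons lie inside exons of AT1G07590, while MT1C overlaps none of the genes drawn. A non-coding gene that lies between MT1A and MT1C is not drawn.

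MT2A, a type 2 gene and the most abundant member in OE2, had 1051, 1125 and 1685 FPKM in OE2. It had 256, 146 and 244 FPKM in OE1, against 128, 121 and 190 FPKM in tt19-8. The OE2 libraries lay above all others, and the OE1 and tt19-8 ranges overlapped. The means were 1287 ± 347 FPKM in OE2, 215 ± 60.2 FPKM in OE1, and 146 ± 38.2 in tt19-8 (SD, n = 3 each), so that OE2 was 5.97 times OE1 and 8.79 times tt19-8. Within pairs the OE2 to OE1 ratio was 4.10, 7.69 and 6.91. The log2 difference was 2.58 for OE2 minus OE1, the 11th largest of all genes tested, and 3.12 for OE2 minus tt19-8, the 4th largest. MT1C and MT2A shared their lowest library within OE1, replicate 2, as did MT2B and MT3. They also shared their highest within OE2 and within tt19-8, replicate 3 in each. MT2B was likewise highest there within OE2, and MT3 within tt19-8. Within OE1 the highest library was replicate 3 for MT1C and replicate 1 for MT2A. Within tt19-8 the lowest was replicate 1 for MT1C and replicate 2 for MT2A.

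MT2B, the paralog of MT2A, had 271, 205 and 299 FPKM in OE2, 252, 139 and 260 FPKM in OE1, against 254, 211 and 141 FPKM in tt19-8. The groups overlapped, and the OE2 to OE1 ratio within pairs was 1.08, 1.47 and 1.15. Where MT2A was highest within tt19-8, in replicate 3, MT2B was lowest. The ratio of MT2A to MT2B was 3.87, 5.49 and 5.64 in OE2, 1.02, 1.05 and 0.937 in OE1, and 0.504, 0.574 and 1.35 in tt19-8. The tt19-8 replicate 3 value lay above those of all OE1 libraries, and the other tt19-8 values below them.

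MT3, known from leaf mesophyll, had 400, 217 and 342 FPKM in OE2, 441, 225 and 375 FPKM in OE1, against 211, 191 and 250 FPKM in tt19-8. OE2 and OE1 were close at each replicate number, with ratios of 0.909, 0.965 and 0.913 within pairs, and both overlapped tt19-8 through replicate 2. The MT3 model shares 24 of its 654 exonic bases with COX17 (AT3G15352), a copper chaperone gene on the opposite strand, and 70 bases with an antisense non-coding gene, not analysed here. Strand is not stated for the counting, so these stretches are uncertain. COX17 averaged 9.69 ± 1.35 FPKM in OE2, 9.45 ± 1.40 FPKM in OE1 and 9.44 ± 1.47 FPKM in tt19-8.

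Summed over the 5 members, the level was 1753, 1582 and 2372 FPKM in OE2, 952, 511 and 882 FPKM in OE1, against 595, 525 and 583 FPKM in tt19-8. MT2A made up 59.97% to 71.1% of this sum in OE2, 26.9% to 28.6% in OE1 and 21.6% to 32.6% in tt19-8. The order of the members changed with it. In OE2, MT2A stood above MT3 and MT2B, whose ranges overlapped. In OE1 the ranges of MT3, MT2B and MT2A all overlapped, but MT3 was the highest within every OE1 library, at 42.5% to 46.3% of the sum. In tt19-8, MT3 and MT2B overlapped, MT2B and MT2A overlapped, and the highest MT2A value (190 FPKM) lay just under the lowest MT3 value (191 FPKM). Within libraries, the ratio of MT3 to MT2B was 1.475, 1.06 and 1.14 in OE2 and 1.75, 1.61 and 1.44 in OE1. The same ratio was 0.830, 0.908 and 1.775 in tt19-8. MT1C was the lowest of the 4 everywhere, at 2.76 to 3.14 FPKM per 100 FPKM of MT2A in OE2, 0.991 to 1.17 in OE1 and 1.11 to 1.60 in tt19-8.

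**Figure D3:**
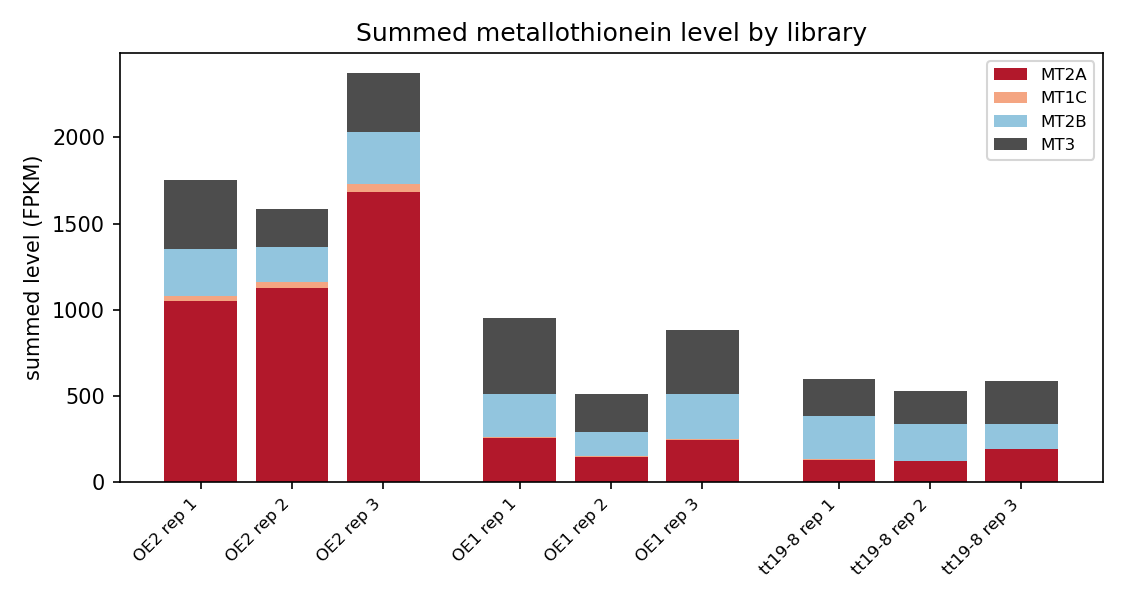
Summed level in FPKM of MT2A, MT1C, MT2B and MT3 in each library of OE2, OE1 and tt19-8 (stacked bars from 0, 1 bar per library, no error). The OE2 bars reach 1582 to 2372 FPKM and are mostly MT2A, and the MT2B and MT3 parts are of like height in OE2 and OE1.

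OE1 against tt19-8 is the comparison least touched by the choice of these genes, and none of its values passed limma on the 6 libraries of OE1 and tt19-8. MT3 had a log2 change of 0.62 ± 0.26 (SE; limma adjusted p = 0.325, unadjusted 0.0327), and MT2A 0.54 ± 0.26 (limma adjusted p = 0.370). MT1C had 0.13 ± 0.26 (limma adjusted p = 0.825) and MT2B 0.09 ± 0.29 (limma adjusted p = 0.896). For none of the 4 did the OE1 and tt19-8 libraries separate. Across the table, 4.14% of genes had every OE1 library above every tt19-8 library and 13.3% every OE1 library below. Limma called 0 of 18232 genes (0.0%) at an adjusted p under 0.05, with 2550 at an unadjusted p under 0.05. Without tt19-8 replicate 3 the count was 1657 genes, and MT2A and MT3 then had log2 changes of 0.74 and 0.73 (limma adjusted p = 0.0834 and 0.108).

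For OE2, all libraries stood above all OE1 libraries in 2 of the 4 members, MT1C and MT2A, and in 7.04% of all genes tested. Above all tt19-8 libraries stood the same 2 members and 9.35% of genes. No member lay wholly below, against 14.7% and 27.7% of genes. MT1A did not pass the level filter and is not among the 4. Since the genes were chosen with these values known, nothing is read from these counts. The median log2 difference of the 4 members was 1.43 for OE2 minus OE1 and 1.82 for OE2 minus tt19-8, beside -0.07 and -0.18 over all genes. For OE1 minus tt19-8 it was 0.34, beside -0.11.

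Short transcripts had a wider upper spread of OE2 over OE1 than long ones. Among 417 genes with longest transcripts above 500 and up to 700 bases, the log2 difference had a median of -0.02 and a 90th percentile of 0.71. Among 2148 genes above 3000 bases these were -0.13 and 0.03. MT1C, MT2B and MT3 fall in the shorter class. Of 205 genes within 10% of the length of MT1C, none reached its OE2 minus OE1 difference of 3.53, and the highest had 3.21. Of 1453 genes within 10% of the length of MT2A, 2 reached its 2.58. MT2B lay inside its class, with 21.9% of 201 genes at or above its 0.29, as did MT3, with 69.6% of 336 genes at or above its -0.11. Against tt19-8, genes of the lengths of the 4 tested members had OE2 medians above that of all genes (-0.18). The 86 genes of up to 300 bases also had a median above it, at -0.03. Genes of the length of MT1C had a median OE2 minus tt19-8 difference of 0.33 and those of MT2B 0.35, while MT2B itself had 0.38. The same classes had medians of 0.23 and 0.27 for OE1 minus tt19-8. Relative to genes of like length, MT1C had 3.34 and MT2A 3.04 for OE2 minus tt19-8, MT3 had 0.27 and MT2B 0.03.

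**Figure D4:**
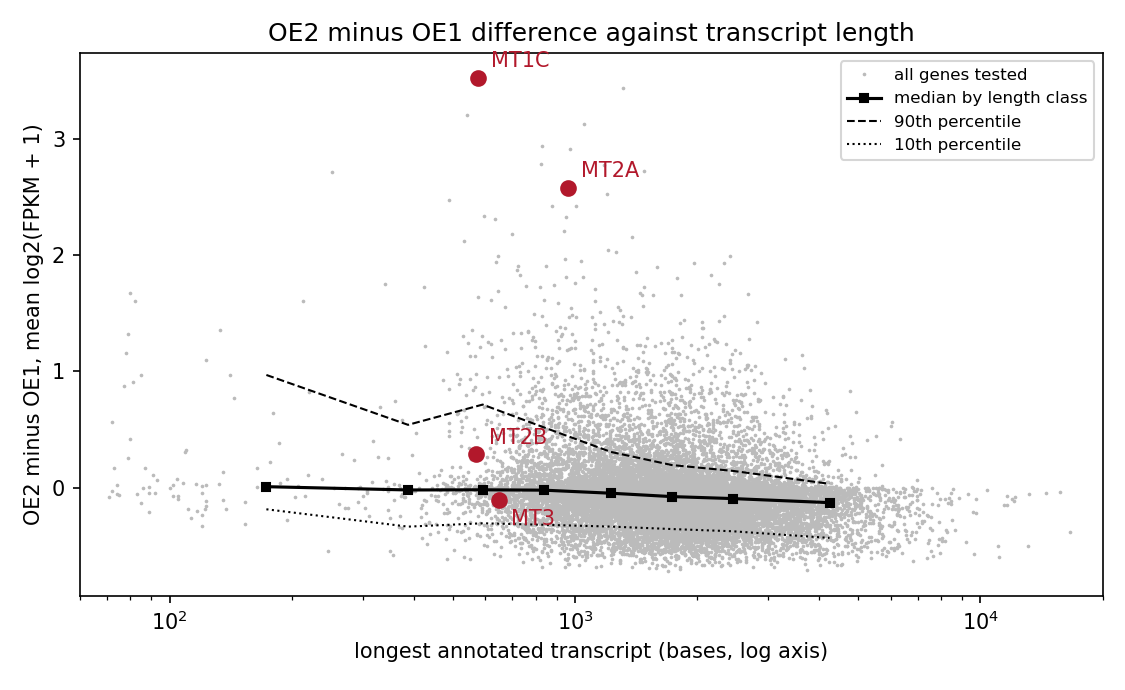
Difference of mean log2(FPKM + 1) between OE2 and OE1 against the longest annotated transcript (bases, log axis) for the genes tested, with the median, 10th and 90th percentile of 8 length classes as lines. MT1C (3.53) and MT2A (2.58) lie far above the 90th percentile of their classes, while MT2B (0.29) and MT3 (-0.11) lie between the percentiles.

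The other family members were at or under 3.97 FPKM in every library. MT1B (AT5G56795), of type 1, had 0.587, 1.26 and 2.66 FPKM in OE2, 0, 0 and 0.406 FPKM in OE1, against 0, 1.14 and 0 FPKM in tt19-8. Its OE2 libraries were above the OE1 libraries but not above all tt19-8 libraries. The seed gene MT4A (AT2G42000) was highest in replicate 2 of both OE lines, whose values are linked, so this is not agreement between independent lines. MT4B (AT2G23240) was at or under 0.729 FPKM. The seed markers together summed to 18.6 to 75.4 FPKM in OE2, 3.09 to 74.8 FPKM in OE1 and 99.1 to 602 FPKM in tt19-8. Most of this was CRA1 and CRC, which had 388 and 172 FPKM in tt19-8 replicate 2. Of the 5 seed markers that passed the level filter, only CRA1 lay wholly below tt19-8 in OE2 and in OE1. Of all genes, 27.7% and 13.3% did so. None separated between OE2 and OE1.

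The genes whose profile over the 9 libraries was most like each member were taken from 12608 genes with a mean of at least 5 FPKM, by the root mean square difference of log2 values centred on each gene's mean. Nearest to MT1C were AT5G57785, of unknown function (0.24), LSU2 (AT5G24660), a gene that responds to low sulfur (0.38), and MT2A itself (0.41). Nearest to MT2A were LSU2 (0.19), the RALF family gene AT4G14020 (0.34) and the knottin family gene AT2G43530 (0.38). The OE2 values that drew attention to MT1C and MT2A enter this measure, so genes near them are high in OE2 by construction. AT5G57785, LSU2 and AT2G43530 reached the mean of 5 FPKM only through OE2. AT5G57785 averaged 16.3 FPKM in OE2, 0.592 FPKM in OE1 and 0.297 FPKM in tt19-8. LSU2 had 25.3, 31.5 and 43.2 FPKM in OE2, 3.89, 2.62 and 5.52 FPKM in OE1, against 2.98, 1.99 and 4.47 FPKM in tt19-8. Like MT1C and MT2A, it was lowest in replicate 2 of OE1 and highest in replicate 3 of OE2 and of tt19-8. LSU2 was chosen by likeness over these same libraries, so this sharing is no further evidence. Within tt19-8, LSU2 was lowest in replicate 2 (1.99 FPKM) and MT1C in replicate 1 (1.42 FPKM). MT2B and MT3 were nearer to each other (0.38) than to MT1C or MT2A (1.26 to 1.64). Nearest to MT2B were RUG1, CHIL, a chalcone isomerase-like gene of flavonoid synthesis, and PBG1, a proteasome subunit gene (0.13 to 0.15). Nearest to MT3 were AT3G12587, AT5G04750 and AT3G57320 (0.07 to 0.09).

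Genes that handle copper, the metal most tied to metallothioneins, are described beside the shares of all genes. Of 25 listed copper genes 21 passed the level filter. None had all OE2 libraries above all OE1 libraries and 4 had all below (COPT5, CCS, HMA1 and RAN1), beside 7.04% and 14.7% of all genes. Against tt19-8, 3 stood wholly above (the transporter genes COPT1 and COPT2 and the chaperone gene ATX1) and 8 wholly below, beside 9.35% and 27.7%. COPT1 and COPT2 were also wholly above tt19-8 in OE1, beside 4.14% of all genes. CCS, RAN1 and SPL7 were wholly below tt19-8 in OE1, beside 13.3% of all genes. With so few genes in the list, nothing is read from these counts. The most abundant gene of the list, the plastocyanin gene PETE2, averaged 673 ± 193 FPKM in OE2, 713 ± 224 FPKM in OE1 and 941 ± 253 FPKM in tt19-8. The vacuolar transporter gene COPT5 averaged 125 ± 6.54, 175 ± 12.5 and 169 ± 15.1 FPKM in OE2, OE1 and tt19-8, and the superoxide dismutase gene CSD3 154 ± 31.1, 166 ± 33.8 and 119 ± 8.66 FPKM. The list's median log2 difference was -0.10 for OE2 minus OE1.

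Of 23 zinc and cadmium genes 19 passed the filter, and 2 had all OE2 libraries above all OE1 and all tt19-8 libraries, beside 7.04% and 9.35% of all genes. Wholly below OE1 were 4 genes and wholly below tt19-8 were 7, beside 14.7% and 27.7%. The 2 above were MTP1, a vacuolar zinc transporter gene, and HMA4, a zinc pump gene for loading the xylem. MTP1 averaged 10.9 ± 0.381 FPKM in OE2, 6.31 ± 0.859 FPKM in OE1 and 6.29 ± 0.791 FPKM in tt19-8, and HMA4 5.25 ± 0.363, 3.38 ± 0.134 and 3.08 ± 0.487 FPKM. Below both were ABCC1 and ABCC2, vacuolar carriers of phytochelatins, PCS1, which makes them, and the zinc transporter gene ZIP5. ZIP2, ZIP4 and NAS3 were below tt19-8 but not wholly below OE1. ABCC2 averaged 159 ± 8.37 FPKM in OE2, 197 ± 10.9 FPKM in OE1 and 249 ± 57.7 FPKM in tt19-8, and NAS1, a nicotianamine synthase gene, 61.5 ± 10.04, 68.3 ± 12.4 and 50.7 ± 16.4 FPKM. ABCC1 averaged 43.7 ± 4.28, 59.6 ± 6.62 and 75.2 ± 10.05 FPKM. In OE1 against tt19-8, limma called no gene of the copper, zinc and senescence lists (lowest adjusted p 0.308, 0.308 and 0.447).

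Metallothioneins are also used as senescence markers, and of 7 senescence genes 5 passed the filter. SAG21 and the chlorophyll breakdown gene NYE1, 2 of the 5, had all OE2 libraries above all others, beside 7.04% of all genes above OE1 and 9.35% above tt19-8. SAG21 averaged 57.4 ± 14.3 FPKM in OE2, 39.3 ± 4.44 FPKM in OE1 and 38.4 ± 6.54 FPKM in tt19-8, and NYE1 4.03 ± 0.503, 2.02 ± 0.774 and 1.60 ± 0.278 FPKM. SAG13 averaged 6.39 ± 3.90, 3.76 ± 2.32 and 6.96 ± 3.94 FPKM, with overlapping groups. SAG12, which marks late senescence, was listed at 0 in all libraries. The summed level of the list was 59.7 to 94.0 FPKM in OE2, 42.9 to 57.7 FPKM in OE1 and 43.1 to 62.3 FPKM in tt19-8. Tissue markers are given beside 14.7% of all genes wholly below OE1 and 27.7% wholly below tt19-8 in OE2. The 4 phloem markers, of a tissue in which metallothioneins are known, summed to 199 to 224 FPKM in OE2, 256 to 303 FPKM in OE1 and 298 to 380 FPKM in tt19-8, and most of this was SUC2. SUC2 and APL lay wholly below OE1 and tt19-8 in OE2, SEOR1 below tt19-8, while PP2-A1 averaged 51.0 ± 2.03 FPKM in OE2, 50.9 ± 4.48 FPKM in OE1 and 60.2 ± 10.7 FPKM in tt19-8. The 5 root markers summed to 727 to 847 FPKM in OE2, 835 to 970 FPKM in OE1 and 686 to 1149 FPKM in tt19-8, nearly all of it PYK10. The other 4 (EXPA7, COBL9, RSL4 and PHT1.1) lay wholly below tt19-8 in OE2, beside 27.7% of all genes. The list had a median log2 difference of -0.79 for OE2 minus tt19-8, beside -0.18 over all genes. None of the 5 was wholly below OE1. In OE1 itself EXPA7 and PHT1.1 were wholly below tt19-8, beside 13.3% of all genes. The phosphate transporter gene PHT1.1 averaged 16.7 ± 2.05 FPKM in OE2, 20.7 ± 3.51 FPKM in OE1 and 47.9 ± 10.5 FPKM in tt19-8. The 5 shoot markers summed to 10475 to 14568 FPKM in OE2, 14309 to 20707 FPKM in OE1 and 15116 to 15705 FPKM in tt19-8, mostly RBCS1A, which lay wholly below both groups in OE2. LHCB1.1, an antenna protein gene with close paralogs among which reads may be split, lay wholly above both, beside 7.04% and 9.35% of all genes. It averaged 114 ± 10.8 FPKM in OE2, 49.99 ± 15.2 FPKM in OE1 and 47.7 ± 0.841 FPKM in tt19-8. The other shoot markers (CAB3, GLK2 and LHCA3) overlapped both groups in OE2. No marker was at 0 in all libraries. In bulk seedlings, a change in the share of a cell type and a change of RNA per cell cannot be told apart, and the part of tissue makeup in the MT1C and MT2A levels was not tested.

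The 250 bases before the annotated start of MT1C and MT2A are shown because these 2 genes were high together in OE2. They were read from TAIR10.1, 5′ to 3′ on the gene's strand, at chr1:2341197-2341446 (forward) and chr3:2890575-2890824 (reverse).
MT1C upstream: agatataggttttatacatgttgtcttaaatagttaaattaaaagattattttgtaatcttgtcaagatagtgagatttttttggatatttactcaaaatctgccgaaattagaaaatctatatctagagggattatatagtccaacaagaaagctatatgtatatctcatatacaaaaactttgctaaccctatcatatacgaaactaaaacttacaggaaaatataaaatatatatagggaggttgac
MT2A upstream: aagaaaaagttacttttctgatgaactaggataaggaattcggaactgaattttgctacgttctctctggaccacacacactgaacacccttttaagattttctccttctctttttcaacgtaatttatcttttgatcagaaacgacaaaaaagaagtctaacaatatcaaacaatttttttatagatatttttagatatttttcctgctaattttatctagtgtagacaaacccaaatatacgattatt

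Neither region held any of the motifs searched on both strands, so no base is in capitals. The motifs were GTAC (the core bound by the copper regulator SPL7), ACGTG (a core of abscisic acid and light elements), TGACG (bound by TGA factors) and CCGAC (bound by cold regulators), where ACGTG and TGACG can overlap. They occur in 34.4%, 23.1%, 18.6% and 11.9% of 26711 such regions before protein-coding genes. MT3 held GTAC and TGACG once each, and MT1A and MT2B each held ACGTG as the palindrome CACGTG, read on both strands. This says only that these letters are or are not in these windows.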

How the data were processed

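RNA sequencing of 9 libraries (3 each of OE2, OE1 and tt19-8) was deposited as FPKM values by the authors, 1 file per sample, per the file headers. Per the submitters' processing notes, HISAT 0.1.6, edgeR and the build TAIR10 were used, without roles. Gene lengths, totals and counting rules are not given in the sources used here. The OE1 files (header GENE) list genes in another order than the other 6 files (header Gene).

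Values were taken as log2(FPKM + 1), which understates changes of low genes. The 18232 genes at 1 FPKM or more in 3 or more libraries were tested with limma 3.58.1 (R 4.3.3; eBayes with trend and robust) on OE1 and tt19-8 only, since OE2 values are linked to OE1. Benjamini-Hochberg adjustment ran over all genes tested. OE2 contrasts are differences of means with no test. Of 33602 identifiers 32835 matched TAIR10.1, whose gene models gave positions, lengths (longest transcript) and sequences; the files hold no coordinates. Tables and plots used Python 3.11.15 with pandas 2.3.3, numpy 2.4.6 and matplotlib 3.10.9.

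The members and gene lists were chosen with earlier results of these data known. Named genes are the members, other metallothioneins, the nearest annotated genes beside them that passed the level filter, the 3 most abundant genes of the copper, zinc and cadmium, and senescence lists, and the 3 genes most like each member. COX17, MTP1, HMA4 and others named beside counts were picked after their values were seen. Tissue markers were named beside their list's sum, also after their values were seen.

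Replicate numbers were checked by correlating deviations from the group means across genes. Same-numbered OE2 and OE1 libraries gave 0.953, 0.959 and 0.957, so these are paired, through the data and not the labels. OE1 and tt19-8 gave -0.0586, 0.0425 and 0.0315.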

Additional observations from a re-analysis of the deposited data

How the results depend on the processing

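In OE1 against tt19-8 no member passed limma under any of 12 alternatives (another pseudocount, no filter, median-ratio scaling, all 9 libraries, a replicate block, eBayes without trend and robust, and each library left out). MT2A (0.40 to 0.80) and MT3 (0.42 to 0.91) kept their sign in all 12. Leaving out 1 library gave -0.0172 to 0.337 for MT1C, below 0 without tt19-8 replicate 1 (-0.0172), and -0.145 to 0.385 for MT2B, below 0 without OE1 replicate 1 (-0.0418), OE1 replicate 3 (-0.0649) and tt19-8 replicate 3 (-0.145).

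The count of genes called was 0, but 3 with all 9 libraries in the fit and 5 with the replicate block. Leaving out 1 library gave 0 to 1657 genes, with 1 without OE1 replicate 3 and 1657 without tt19-8 replicate 3; the cause was not tested. The block changed no member's call (limma adjusted p 0.331 for MT3 and 0.368 for MT2A), and OE1 and tt19-8 share only a number.

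For OE2 minus tt19-8, MT1C moved to 4.16 with a pseudocount of 0.1 FPKM and to 3.34 relative to genes of like transcript length. For OE2 minus OE1 it moved to 3.98 with that pseudocount. With 1 library left out, MT1C gave 3.497 to 3.82 against tt19-8 and 3.33 to 3.67 against OE1, and MT2A 2.91 to 3.33 and 2.33 to 2.73. Median-ratio scaling, which brought the median of all genes from -0.18 to -0.02 for OE2 minus tt19-8, gave 3.81 for MT1C and 3.32 for MT2A. Leaving out 1 OE2 or OE1 library splits a pair, and OE2 minus OE1 then ran from -0.01 to 0.44 for MT2B and from -0.39 to 0.15 for MT3. Within pairs the OE2 to OE1 ratios were 1.08 to 1.47 for MT2B and 0.909 to 0.965 for MT3. The median ratio over genes above 0 in OE1 was 0.9515, 0.9548 and 0.9436 in pairs 1, 2 and 3. MT3 lay below this median in pairs 1 and 3 and above it in pair 2. Since OE2 is linked to OE1, like ratios across pairs do not show stability. The depth of OE2 is unknown, which limits what its low values can show.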
